A study of Mus musculus with 18 samples.

Results

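The response of wild-type dendritic cells (DCs) to confinement at a height of 3 µm is described here across genes. It was read from the 3 libraries of confined and the 3 libraries of nonconfined cPLA_2_ WT DCs, which are 6 of the 18 libraries of the study. Genes entered when 3 or more of all 18 libraries held 10 or more normalized counts, so that a gene silent in nonconfined cells entered if it was expressed elsewhere, which left 17875 of the 62197 genes in the table. In both groups the cells were grown for 10 days from bone marrow of mice 6 to 8 weeks old, in medium with GM-CSF from transfected J558 cells, and were sequenced in bulk as polyadenylated RNA. The label WT of cPLA2 marks animals without the deletion of *Pla2g4a*, the gene of the phospholipase cPLA_2_, which the study's line places in CD11c-expressing cells through *Itgax-cre*. They were littermates of, or matched in age to, animals with the deletion. Neither group is labelled with an agent. A protocol text attached to every sample describes a pulse of lipopolysaccharide (LPS), but the treatment entries of both groups used here name no LPS.

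Nonconfined cells were taken directly at the end of the culture, and confined cells 4 h after they had been placed under a coverslip held at 3 µm by pillars. Confinement, the added time and the transfer into the device therefore cannot be told apart. The labels do not say whether the libraries of a group come from separate animals or cultures. The study's figure legend for these data calls each sample a biological replicate. The p-values rest on the spread between libraries of the same group, pooled over all groups of the study. That includes the groups with the deletion and those with LPS, so it is not the spread of the compared libraries alone. Part of it may be technical. Nonconfined libraries held 34689393 to 45020354 reads on genes (median 39851237) and confined libraries 33592725 to 45769637 (median 42049558).

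DCs sample their surroundings, take up antigen and, once matured, carry it to lymph nodes, where they present it to T cells with co-stimulatory ligands and cytokines. Maturation is driven by NF-κB, by interferon regulatory factors and by type I interferon acting back on the cell, and each of these pathways induces its own inhibitors. When a cell is squeezed, its nuclear envelope stretches and cPLA_2_ can bind there and release arachidonic acid, the precursor of prostaglandins and leukotrienes.

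A gene counts as called higher or lower in confined cells when its Benjamini-Hochberg adjusted p, from limma, lies under 0.05 and its log2 fold change exceeds 1 in that direction. Where values of libraries are set against each other, the 3 nonconfined ones come first. Of the genes tested, 2038 (11.4%) were called higher and 1362 (7.62%) lower, 3400 in all (19.0%), and these shares are the background for each group of genes below. By the adjusted p alone 28.2% were higher and 28.4% lower. In 64.3% of the genes tested, the 3 confined libraries did not overlap the 3 nonconfined ones in either direction. The direction with more calls depended on the scaling of the libraries. With the authors' size factors 59.9% of the calls were higher. The normalized totals averaged 34125100 in nonconfined and 39890269 in confined libraries. Scaling to equal totals therefore lowers nearly all log2 fold changes by a like amount. After scaling all libraries to one total instead, the median over the genes moved from a log2 fold change of -0.005 to -0.226, 1618 genes were called higher and 2141 lower, and 43.0% of the calls were higher. All 1618 and all of the 1362 were calls under both scalings. Of the genes named below, the calls of *Irf1*, *Ccr3*, *Ccr7*, *H2-Q4*, *Pla2g7*, *Fmnl2*, *Cyfip1*, *Tpm1*, *Tmem63b*, *Orai2*, *Pcx*, *Apaf1*, *Bcl2l11*, *Mmp25* and *Psmb6* as higher end with equal totals, and *Fscn1*, *Ltc4s* and *Abcg1* are then called lower.

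Large changes were mostly increases. A log2 fold change above 3 was found for 389 genes, and one below -3 for 80 genes. The called increases summed to 5301485 normalized counts per library on average, and the 10 genes with the largest rise made up 27.5% of that sum. *Peg10*, a gene derived from a retrotransposon, went from 11.4, 8.53 and 5.90 to 9099, 9109 and 9375 normalized counts. Genes without a symbol were called as well, 508 of 3889 higher and 173 lower. The rest of the account is by gene function, with lists of genes whose members are counted against the shares above. As the lists were chosen with earlier results of these data known, these counts describe the response and do not test it. The plot of the 64 functional lists with a tested member shows where each stood.

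**Figure D1:**
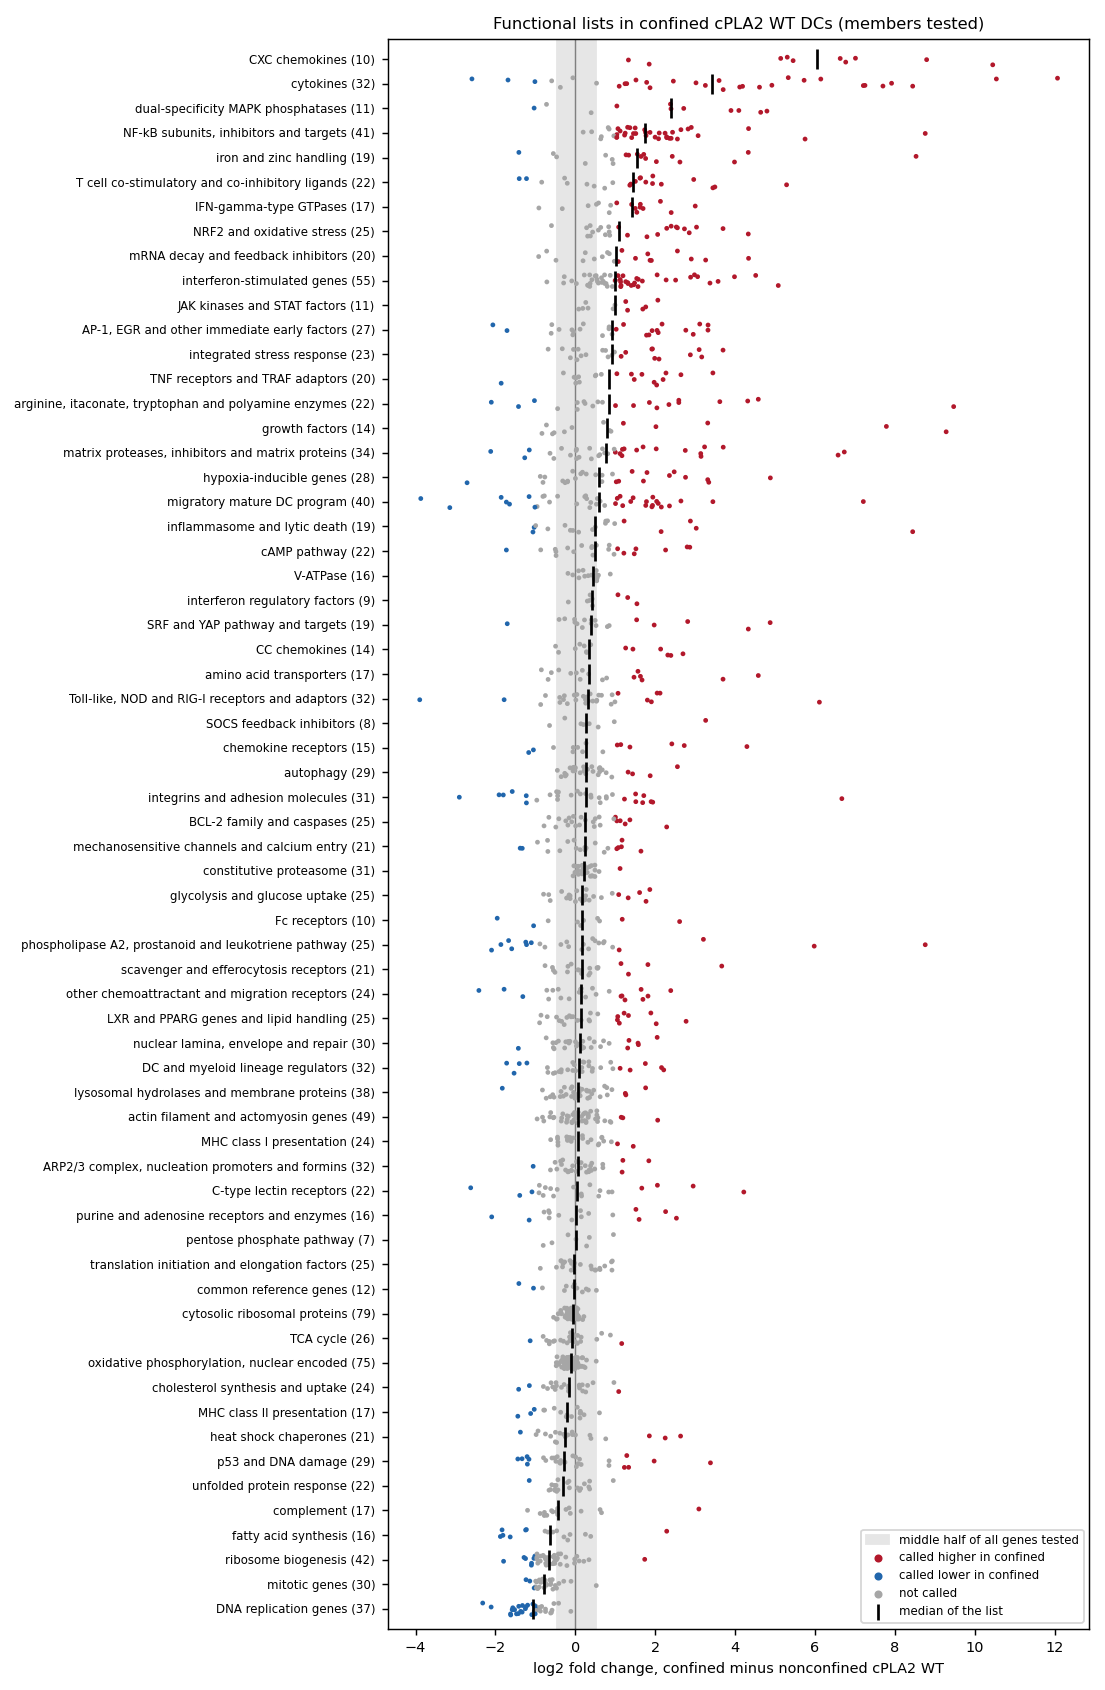
Log2 fold change, confined minus nonconfined cPLA_2_ WT DCs, of each tested member of 64 functional gene lists, with black bars at the medians and a grey band from the lower to the upper quartile of all genes tested (-0.458 to 0.526). CXC chemokines had the highest median (6.04) and DNA replication genes the lowest (-1.06). Members nearly silent in nonconfined libraries passed the filter through other libraries and could hardly be called lower. With equal totals 15 of the medians near 0 change sign.

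Genes of the NF-κB pathway, the transcription factors that act downstream of many danger signals, were higher throughout. Of 41 subunits, inhibitors and targets tested, 34 were called higher and none lower (0 by the adjusted p alone), with a median log2 fold change of 1.74. *Nfkbiz*, which encodes the nuclear cofactor IκBζ, had 331, 283 and 284 normalized counts in the nonconfined libraries and 16332, 16112 and 16025 in the confined ones. The confined libraries were all far above the others, and the log2 fold change was 5.75 (SE 0.07, limma adjusted p = 3.1e-24). *Tnfaip3*, the gene of the ubiquitin-editing inhibitor A20, went from 1199, 1161 and 1153 to 24004, 23406 and 23736 normalized counts. Here too the groups lay wide apart (log2 fold change 4.34, SE 0.06, limma adjusted p = 2.4e-22). *Gadd45b*, a stress-induced target, rose by 3.08 and *Traf1*, an adaptor of TNF receptors, by 2.65. The subunit genes *Nfkb1*, *Nfkb2* and *Rel* and the inhibitor gene *Nfkbia* were among the members called. The kinase genes *Ikbkb* and *Chuk* were not called. *Ikbkb*, the IKKβ gene that the study discusses, was at 3509.7, 3306 and 3188 in nonconfined and 4508, 4380.1 and 4394 in confined libraries, a log2 fold change of 0.41 that passed the adjusted p alone.

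Cytokine genes held some of the largest increases. Among 32 cytokine genes tested, 25 were called higher and 3 lower, and the median log2 fold change was 3.43, or 3.46 with 4 members that had no read in the nonconfined group set to the bound given by 3 reads over that group. With a pseudocount of 5 in place of 1 this median was 2.76. Members nearly silent without confinement, such as *Il10* and *Csf3*, passed the filter through other libraries and could hardly be called lower. *Il1b* (identifier GSMG0032782, chromosome 2 from 129206497 to 129213062 on GRCm39) encodes interleukin-1β, which is made as an inactive precursor. It was measured at 272, 321 and 287 normalized counts in nonconfined and 105806, 99731 and 102497 in confined libraries. The means lie 349.9-fold apart, with little spread within either group (log2 fold change 8.45, SE 0.07, limma adjusted p = 2.1e-26). *Il1a*, the gene of its relative interleukin-1α, had 390.1, 367 and 327 and then 78344, 72912 and 74953 normalized counts. *Il1rn*, which encodes the antagonist of their shared receptor, was already well expressed, with 12274, 12349 and 12439.8, and reached 154259, 147351 and 148372. Ligands and antagonist thus rose together, by 7.70 for *Il1a* (SE 0.08, limma adjusted p = 4.2e-25) and by 3.60 for *Il1rn* (SE 0.04, limma adjusted p = 4.2e-25).

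*Il12b*, the gene of the p40 subunit shared by interleukin-12 and interleukin-23, was at 179, 169.7 and 184 normalized counts in nonconfined libraries. In confined libraries it was at 27234, 25842 and 26344, and no library of either group came near the other group (log2 fold change 7.21, SE 0.11, limma adjusted p = 2.1e-22). *Il23a*, which encodes the partner of p40 in interleukin-23, was close to 0 without confinement (3.05, 1.71 and 1.97) and had 807, 763 and 746 normalized counts with it. *Il10*, the gene of the anti-inflammatory cytokine interleukin-10, had no read in the nonconfined libraries. With 1466, 1454 and 1558 normalized counts in the confined libraries it was at least 1742-fold higher, relative to 3 reads over the nonconfined group. *Csf3*, the gene of the granulocyte growth factor G-CSF, was at 3.05, 0 and 0 and then at 7259.8, 6701 and 6676 normalized counts, so that its reads without confinement came from 1 library. Members in the other direction were *Ltb*, *Tgfb2* and *Tgfb3*. *Ltb*, which encodes lymphotoxin-β, fell by 1.01 on the log2 scale, from 4077, 3831 and 3948 to 1997, 1953 and 1934. Among the cytokine genes called, 22 of 28 responded differently in cPLA_2_ KO DCs by the interaction of confinement and genotype (adjusted p under 0.05). That interaction was called for 25.8% of the genes tested and for 47.0% of the 3400 genes called in cPLA_2_ WT DCs.

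The growth factor genes *Areg* and *Ereg*, of the epidermal growth factor family, were induced from very low levels. *Areg*, which encodes amphiregulin, was at 2.29, 5.12 and 2.95 normalized counts in nonconfined and 2726, 2675 and 2651 in confined libraries (log2 fold change 9.29, SE 0.29, limma adjusted p = 1e-16). *Ereg*, the gene of epiregulin, had no read in the former and 257, 219.5 and 189.5 in the latter, at least 259-fold more. *Vegfa*, which encodes the angiogenic factor VEGF-A, went from 768, 733 and 771 to 7678, 7477 and 7520.4. *Nrg1*, a further member of the epidermal growth factor family, was well expressed without confinement and rose by 2.02, while *Hbegf*, of the same family, was not called. In all, 5 of 14 growth factor genes tested were called higher and none lower (4 by the adjusted p alone), with a median of 0.78. *Areg* and *Ereg* passed the filter through other libraries and could hardly be called lower.

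Of 12 CXC chemokine genes listed 10 passed the filter, and each of these was called higher, with a median log2 fold change of 6.04. Their summed level went from 3810.5 ± 103 normalized counts (SD, n = 3) in nonconfined to 102842 ± 2489 (SD, n = 3) in confined libraries. The filter drew on all 18 libraries. Members nearly silent without confinement, such as *Cxcl11*, entered through other conditions and could hardly be called lower. *Cxcl1*, a ligand of CXCR2 that attracts neutrophils, was at 4.57, 13.6 and 7.86 in nonconfined and 4173, 3904 and 3909 in confined libraries. *Cxcl2*, with the same receptor, was at 89.9, 81.9 and 114 against 12826, 12192 and 12004. For both genes the confined libraries lay close together and far above the rest, with log2 fold changes of 8.80 (SE 0.22, limma adjusted p = 2e-18) and 7.02 (SE 0.15, limma adjusted p = 7.6e-20). *Cxcl3* rose by 6.77, and *Ppbp*, a chemokine gene known from platelets, by 5.31. The ligands of CXCR3, which are interferon-inducible, were among them too. *Cxcl11* was at 3.05, 0 and 0 normalized counts without confinement, all of it from 1 library, and at 2356, 2163 and 2184 with it.

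CC chemokines changed less and less uniformly. Of 14 tested, 6 were called higher and none lower (1 by the adjusted p alone), and the median was 0.34. *Ccl4*, which encodes an attractant of monocytes and T cells, was at 2189, 2189 and 2146 in nonconfined and 14709, 13709 and 13929 in confined libraries, with a clear gap between the groups (means 6.49-fold apart, limma adjusted p = 1.1e-14). *Ccl3* rose by 2.14, *Ccl9* by 1.44 and *Ccl5* by 1.26. *Ccl22* and *Ccl17*, whose products attract CCR4-bearing T cells and which mark mature DCs, had small log2 fold changes of 0.39 and 0.29 that were not called. *Ccl22* was nevertheless above the nonconfined range in each confined library, at 56584, 54570.4 and 55835 against 74887, 71369.9 and 72314 normalized counts.

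Receptors that steer migration changed in both directions. Among 15 chemokine receptor genes, 6 were called higher and 2 lower. Besides *Ccr7*, the receptor gene that the study examined, which rose by 1.05, the calls included *Ccrl2*, a receptor that binds chemerin without signalling. It had 411, 397 and 438 normalized counts in nonconfined and 8567, 7991 and 8012 in confined libraries, a 19.7-fold gap between the means (log2 fold change 4.30, SE 0.10, limma adjusted p = 4.7e-19). *Cxcr5*, which guides cells to B cell follicles, was low and rose from 42.7, 48.6 and 57.0 to 233, 256 and 317. *Ccr2*, a receptor of monocytes and their progeny, fell by 1.17 (limma adjusted p = 0.0017). Among 24 other chemoattractant and migration receptors, 7 were called higher and 3 lower, with a median of 0.15 that was -0.08 with equal totals. The formyl peptide receptor *Fpr1*, the sphingosine 1-phosphate receptor *S1pr3* and the platelet-activating factor receptor *Ptafr* rose by 2.39, 1.82 and 1.69. The sphingosine 1-phosphate receptor *S1pr4* and the lysophosphatidic acid receptor *Lpar5* changed in the opposite direction, by -1.78 and -2.41. *Lpar5* was at 768, 837 and 831 in nonconfined and only 149, 154 and 152 in confined libraries.

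**Figure D2:**
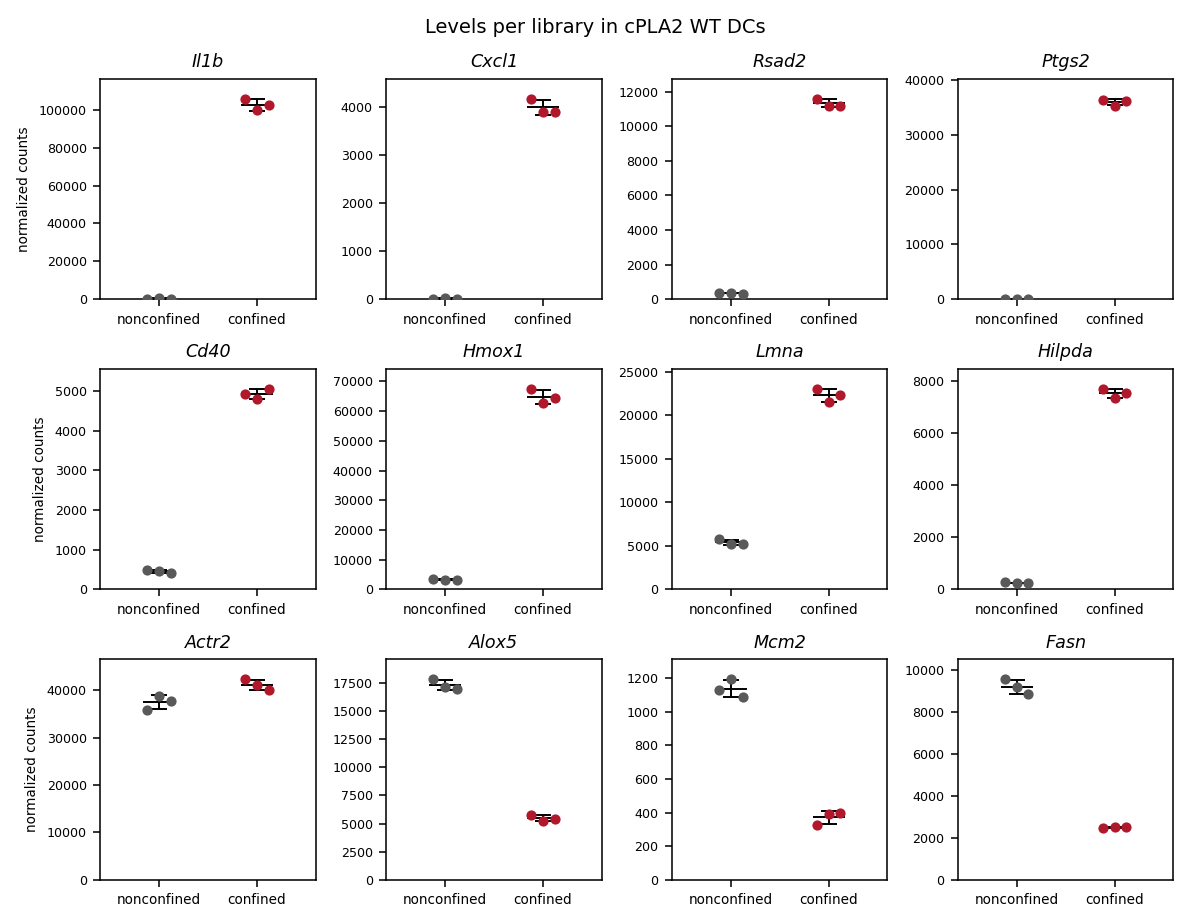
Normalized counts of 12 genes in each nonconfined (grey) and confined (red) cPLA_2_ WT library, with the mean (line) and SD (whiskers, n = 3). *Il1b*, *Cxcl1*, *Rsad2*, *Ptgs2*, *Cd40*, *Hmox1*, *Lmna* and *Hilpda* were called higher and *Alox5*, *Mcm2* and *Fasn* lower; *Actr2* was not called, and its log2 fold change of 0.13 became -0.09 with equal totals.

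Interferon-stimulated genes, most of which encode antiviral proteins, were called higher in 28 of 55 cases and lower in none (3 by the adjusted p alone). Their median log2 fold change was 1.00, and 50 members were higher by the adjusted p alone. *Rsad2*, the gene of viperin, was at 344, 334 and 321 normalized counts in nonconfined and 11593, 11202 and 11191 in confined libraries. Within each group the libraries differed little, and the means of the groups by 34.0-fold (log2 fold change 5.08, SE 0.06, limma adjusted p = 1.6e-24). *Oasl1*, an oligoadenylate synthetase-like gene, had 351, 344 and 369 against 8469, 7905 and 8087 normalized counts. *Ifit1*, whose product binds foreign RNA at its cap, started higher at 1781, 1749 and 1843 and reached 22292, 20656 and 21168. The rise was 4.52 for *Oasl1* (SE 0.06, limma adjusted p = 2.8e-23) and 3.58 for *Ifit1* (SE 0.08, limma adjusted p = 2.5e-19). Not all members shared it, since *Bst2*, the tetherin gene, was at 10595, 10655 and 10330.0 against 10947, 10604 and 10652 and its log2 fold change of 0.03 became -0.20 with equal totals.

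The GTPases that interferon-γ induces for defence against intracellular microbes were higher as well, 10 of 17 with a median of 1.41. *Gbp5*, a guanylate-binding protein gene, had 1578, 1661 and 1681 against 13206, 13086 and 13189 normalized counts, and its groups did not overlap. *Tgtp1* and *Iigp1*, which encode immunity-related GTPases, rose by 2.40 and 2.13. Of the signalling genes above these targets, 5 of 11 JAK and STAT genes were called higher. *Stat4*, a mediator of interleukin-12 and interferon signals, rose by 2.07, *Stat3* by 1.69 and *Jak2*, a kinase of cytokine receptors, by 1.31. *Irf7*, the interferon regulatory factor that amplifies the type I response, went from 3798, 3627 and 3565 to 9564, 8741 and 9009, and *Irf1* rose by 1.07. *Ifnb1*, the gene of interferon-β itself, was among the cytokine genes called.

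The response of these genes differed between the genotypes. Each of the 28 interferon-stimulated genes, 10 GTPases and 34 NF-κB pathway genes called in cPLA_2_ WT DCs had an interaction under the threshold, against 47.0% of all genes called. *Rsad2* had a log2 fold change of 0.09 in cPLA_2_ KO DCs, a difference of 4.99 between the responses (SE 0.08, limma adjusted p = 6e-21). For *Gbp5* the response in cPLA_2_ KO DCs was -1.31 and the difference 4.32 (limma adjusted p = 3.5e-19). *Nfkbiz* rose there as well, by 1.79, which was 3.97 less (limma adjusted p = 3.3e-18).

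Several genes of inhibitors of MAP kinase and cytokine signals were higher. Of 11 dual-specificity phosphatase genes, whose products switch off MAP kinases, 8 were called higher and 1 lower, with a median of 2.40. *Dusp2* had 78.5, 74.2 and 71.7 normalized counts in nonconfined and 2269, 1972 and 2093 in confined libraries. *Dusp1* had 277, 246 and 287 against 4199, 3940.2 and 3953. Both sets of confined values were tightly grouped and well separated from the others (log2 fold change 4.80, SE 0.09, limma adjusted p = 2.4e-20 for *Dusp2* and 3.90, 0.08 and 3.2e-20 for *Dusp1*). *Dusp6*, a phosphatase of ERK that ERK activity maintains, went the other way, from 1246, 1258 and 1149 to 589, 615 and 582. *Socs3*, which blocks signalling by the interleukin-6 family, was at 4343, 3919.9 and 4171 against 41187, 38353 and 39960.3 normalized counts, and 1 of 8 genes of its family was called higher, with 5 higher and 2 lower by the adjusted p alone. *Zc3h12a*, which encodes the cytokine mRNA nuclease Regnase-1, rose by 2.91, and 10 of 20 genes of mRNA decay and feedback were called higher and none lower (3 by the adjusted p alone).

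Immediate early transcription factors did not move as a block. Of 27 tested, 13 were called higher and 2 lower. *Nr4a2*, an orphan nuclear receptor gene, was at 74.7, 79.3 and 91.4 in nonconfined and 848, 793 and 836 in confined libraries, and *Fosl1* and *Fosb*, which encode partners of JUN, rose by 3.32 and 3.12. *Egr1*, a gene of the first minutes of growth factor signalling, was at 3996, 3509 and 3726 in nonconfined and 855, 840.4 and 994 in confined libraries. Every confined library was below every nonconfined one for *Egr1* (log2 fold change -2.06, SE 0.10, limma adjusted p = 1.3e-13). *Myc*, the gene of a driver of growth and ribosome synthesis, fell as well, by 1.71 from 1797, 1624 and 1728 to 579, 527 and 470.2. In the cAMP pathway 7 of 22 genes were called higher and 1 lower. The latter is the adenylyl cyclase gene *Adcy6* (-1.73), and the former include the target *Crem* (2.87), the phosphodiesterase *Pde4b* (2.80) and the adenosine receptors *Adora2a* (2.26) and *Adora2b* (1.52). The adenosine A3 receptor, in an entry shared with *Tmigd3*, was lower (-2.09).

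The enzymes that turn arachidonic acid into lipid mediators changed in both directions. *Ptgs2*, the inducible cyclooxygenase gene, was at 84.6, 76.7 and 84.5 normalized counts in nonconfined and 36417, 35339 and 36222 in confined libraries. The confined values were 439 times higher on average and varied little (log2 fold change 8.76, SE 0.07, limma adjusted p = 1.6e-26). *Ptges*, which encodes the next enzyme on the way to prostaglandin E2, was at 93.7, 78.4 and 87.5 against 5788, 5302 and 5489. *Ptger2*, a receptor for prostaglandin E2, rose from 412, 361 and 424 to 3896, 3567 and 3604. The log2 fold changes of *Ptges* and *Ptger2* were 5.98 (SE 0.13) and 3.21 (SE 0.08). Of the other receptor genes for prostaglandin E2, *Ptger3* was called lower and *Ptger4* was not called.

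The constitutive cyclooxygenase gene and some genes of leukotriene synthesis were lower. *Ptgs1* had 13495, 12497 and 13008 against 4453, 4170.0 and 4319 normalized counts. *Alox5*, the 5-lipoxygenase gene that starts leukotriene synthesis, had 17849, 17182 and 16999 against 5751, 5244 and 5372. *Lta4h*, which encodes the enzyme that makes leukotriene B4, had 15986, 16205 and 15805 against 6956, 6588 and 6797. For these 3 genes each confined library lay below each nonconfined one, with log2 fold changes of -1.59, -1.67 and -1.24 and limma adjusted p of 5.8e-17, 5.9e-17 and 1.1e-14. *Alox5ap* and *Ltc4s*, which also act in leukotriene synthesis, were not called. *Alox15*, a 15-lipoxygenase gene, fell by 2.10. Over the 25 genes of phospholipases A2, prostanoids and leukotrienes, 4 were called higher and 7 lower, and the median of 0.16 became -0.06 with equal totals. *Pla2g4a* itself went from 697, 686 and 770.4 to 1369, 1430.3 and 1321, a log2 fold change of 0.94 just under the limit for a call. In cPLA_2_ KO libraries it was at 548, 542 and 533 without and 923, 871 and 919.5 with confinement, but counts over the whole gene do not show whether the deleted part is absent. *Pla2g7*, the gene of the acetylhydrolase that breaks down platelet-activating factor, rose by 1.10.

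Genes of DC maturation were divided. Of 40 genes of the migratory mature DC program, 18 were called higher and 7 lower, with a median of 0.59. *Cd40*, through which T cells license DCs, was at 482, 462 and 411 in nonconfined and 4930.1, 4801 and 5040.0 in confined libraries. *Cd83*, a maturation marker that stabilises surface MHC class II, was at 5959, 6277 and 5988 against 32589.6, 30371 and 30587. Confined libraries were above nonconfined ones without exception for both (log2 fold change 3.45, SE 0.06, limma adjusted p = 1.6e-21 for *Cd40* and 2.36, 0.04 and 3.1e-21 for *Cd83*). *Fscn1*, which encodes the actin-bundling fascin of mature DCs, was lower without reaching the limit for a call, at 16066, 15255 and 15005 against 8264, 7633 and 8008 (log2 fold change -0.95, limma adjusted p = 8.6e-15). *Aldh1a2*, which encodes a retinoic acid-producing enzyme of tolerogenic DCs, fell by 1.65, and *Slco5a1*, a transporter gene, by 3.87, from 272, 326 and 328 to 32.9, 10.3 and 23.7.

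Ligands that reach T cells were called higher in 13 of 22 cases and lower in 2, with a median of 1.45. *Cd80* and *Cd86*, the ligands of CD28, rose by 1.94 and 1.39. *Tnfsf15*, which encodes the TNF-like ligand TL1A, was at 216, 234 and 217 against 8584, 8739 and 8892, a 39.3-fold change of the mean. *Tnfsf9*, the gene of the 4-1BB ligand, had 700.3, 609.7 and 649 against 5194, 5028 and 5077 normalized counts. Inhibitory genes were on both sides, as *Havcr2*, the TIM-3 gene, went from 142, 135 and 132 to 1567, 1603 and 1474 and *Vsir*, the gene of the checkpoint VISTA, fell by 1.40.

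Antigen presentation on MHC class II did not rise with these ligands. None of 17 genes was called higher (4 by the adjusted p alone) and 3 were called lower, with a median of -0.20, by limma. *H2-DMa* and *H2-DMb2* encode parts of the chaperone that loads peptides. The former had 18411, 17250.4 and 17325 against 8307, 8004 and 8110.3 normalized counts, and the latter 11016, 10627 and 10468 against 4156, 3911 and 3786. *Ciita*, the master regulator of the class II genes, was at 8962, 8434 and 8747 against 4304, 4206 and 4319. Each was lower in all 3 confined libraries, by log2 fold changes of -1.12, -1.44 and -1.03 (limma adjusted p = 2e-14, 2.5e-15 and 8.7e-11). These 3 genes had responses of -1.01, -1.34 and -1.01 in cPLA_2_ KO DCs, and no interaction was called for them. Of 24 class I genes 2 were called higher, the nonclassical *H2-Q7* (1.45) and *H2-Q4* (1.06), of which only *H2-Q7* remains with equal totals, while the median of 0.06 became -0.16 with equal totals.

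Sensors of microbes and of dying cells changed in both directions. *Cd14*, the co-receptor that delivers LPS to TLR4, was at 1945, 1809 and 1943 normalized counts in nonconfined and 136116, 129232 and 129184 in confined libraries. The confined group exceeded the other by a factor of 69.2 (log2 fold change 6.11, SE 0.06, limma adjusted p = 4.2e-25). *Tlr2*, a receptor for bacterial lipopeptides, rose by 2.12 and *Ifih1*, the gene of the RNA sensor MDA5, by 2.05. In all 6 of 32 Toll-like, NOD and RIG-I receptor and adaptor genes were called higher and 2 lower, the latter near the 7.62% of all genes tested. *Clec4e*, the gene of Mincle, which senses mycobacterial glycolipid and cell death, had 919.7, 1028 and 1031 against 18956, 18268 and 18264 normalized counts. Among 22 C-type lectins, 4 were called higher and 3 lower (5 lower with equal totals), and the median of 0.05 became -0.17 with equal totals. *Mgl2* and *Clec10a*, lectins for galactose-type sugars, fell by 1.08 and 1.39. *Mefv*, the pyrin gene, *Casp4*, which encodes the caspase that binds intracellular LPS, and *Ninj1*, whose product ruptures the membrane of dying cells, rose by 3.03, 2.88 and 2.15. They belong to the 19 genes of inflammasomes and lytic death, of which 5 were called higher and 2 lower. *Olr1*, a scavenger receptor gene, rose by 3.67.

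Few genes of the actin machinery passed the limit on fold change, though more than the background share passed the adjusted p alone. That background includes 6770 genes with a mean under 100 normalized counts, where small changes are harder to detect. Of 32 genes of the ARP2/3 complex, its activators and formins, 3 were called higher and 1 lower (1 higher and 1 lower with equal totals). By the adjusted p alone 15 were higher and 10 lower, and the median of 0.06 became -0.17 with equal totals. *Actr2*, a subunit gene of the complex, was at 35889, 38722 and 37811 in nonconfined and 42268, 41020.3 and 40078 in confined libraries. The groups did not overlap, yet the log2 fold change was only 0.13 and turned to -0.09 with equal totals. *Daam1* and *Fmnl2*, which encode formins that elongate unbranched filaments, rose by 1.84 and 1.19. *Cyfip1*, a part of the WAVE complex that activates ARP2/3, went from 9009.7, 8987 and 8900.2 to 20079, 19959 and 20617 normalized counts. *Arpin*, the gene of an ARP2/3 inhibitor, was low, at 136, 143 and 141 against 70.5, 87.5 and 48.6, and fell by 1.05 (limma adjusted p = 0.00017). Among 49 actin filament and actomyosin genes, 3 were called higher and none lower (22 higher and 12 lower by the adjusted p alone, 1 higher and 2 lower with equal totals), and the median of 0.07 was -0.16 with equal totals. *Rhoc*, a small GTPase of cell locomotion, rose by 2.06, from 1249.7, 1224 and 1157 to 5338, 4821 and 5036, and *Tpm1*, a tropomyosin gene, by 1.15.

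In the nuclear envelope *Lmna*, which encodes the A-type lamins that stiffen the nucleus, was at 5779, 5214 and 5166 normalized counts in nonconfined and 23027, 21591 and 22303 in confined libraries. All confined libraries lay above the nonconfined ones, by 4.14-fold on average (log2 fold change 2.05, SE 0.06, limma adjusted p = 1.7e-17). *Emd*, the gene of the lamin-binding protein emerin, had 3326, 3357 and 3349 against 10163, 9945 and 9918 normalized counts. *Syne2*, which encodes the giant nesprin-2 that ties the nucleus to actin, rose by 1.57 with more spread, from 1116, 1483 and 1219 to 3000.4, 4383 and 4027. *Lbr*, the lamin B receptor gene, moved in the opposite direction to *Lmna*, with 2784, 2789 and 2937 against 1079, 1035 and 1052 (log2 fold change -1.43, SE 0.07, limma adjusted p = 5.2e-14). In total 5 of 30 lamina, envelope and repair genes were called higher and 1 lower, together near the 19.0% called among all genes tested, and 13 were higher and 10 lower by the adjusted p alone, with a median of 0.12 that was -0.11 with equal totals.

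Channels for mechanical signals and calcium were called higher in 5 of 21 cases and lower in 2, a balance that turned to 1 higher and 3 lower with equal totals. *Trpm4*, *Tmem63b* and *Orai2*, which encode a calcium-activated cation channel, an osmosensitive channel and a store-operated channel subunit, rose by 1.65, 1.17 and 1.08. *Itpr1*, the gene of a calcium release channel of the endoplasmic reticulum, was at 4096, 4112 and 4192 against 1533, 1754 and 1661, lower in every confined library (log2 fold change -1.33).

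Adhesion genes changed in both directions. Of 31 integrin and adhesion genes, 8 were called higher and 6 lower. *Itga5*, which with β1 integrin forms the fibronectin receptor, had 4004, 3986 and 4141 against 15359, 14848 and 15029 normalized counts. *Itgav*, the gene of the αV integrin, had 2164, 2147 and 2144 against 7834, 8541 and 8414. The rises were of like size, 1.90 (SE 0.04, limma adjusted p = 3.2e-20) and 1.94 (SE 0.04, limma adjusted p = 4e-19). *Cdh1*, the E-cadherin gene, whose product joins cells to each other, was at 11689.6, 11257 and 11497 in nonconfined and 3174, 3048 and 2959 in confined libraries. *Itgae*, the gene of the integrin that binds E-cadherin, was at 2126, 2121 and 2148 against 644, 587 and 603. This receptor and its ligand were both lower in all confined libraries (log2 fold change -1.91, SE 0.06, limma adjusted p = 1.1e-16 and -1.80, 0.11 and 1.4e-11), and *Itgb7*, which pairs with *Itgae*, fell by 1.23.

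Proteins of the matrix and of its turnover were called higher in 15 of 34 cases and lower in 3 (9 higher and 3 lower with equal totals), with a median of 0.78. *Thbs1*, the gene of the adhesive glycoprotein thrombospondin-1, was at 19293, 18335 and 18589 against 166468, 163722 and 165873. Both proteases and their inhibitors were among them. *Timp1*, which encodes an inhibitor of metalloproteinases, rose by 6.58, to 2701, 2597 and 2622 normalized counts. *Serpinb2*, the gene of an inhibitor of plasminogen activators, rose by 3.70. *Tgm2*, whose product cross-links proteins, rose by 3.24. The metalloproteinase genes *Mmp13*, *Mmp14*, *Mmp19* and *Mmp25* were called higher, while the gelatinase gene *Mmp9* fell by 1.27 (limma adjusted p = 0.00026).

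Of 25 genes of glucose uptake and glycolysis 5 were called higher and none lower (12 higher and 5 lower by the adjusted p alone), and the median of 0.18 turned to -0.05 with equal totals. *Pfkfb3*, which makes the activator of phosphofructokinase, was at 1708, 1726 and 1794 against 6544, 6331 and 6201. *Hk2*, the inducible hexokinase gene, rose by 1.61, and *Slc16a3*, a lactate exporter gene, by 1.33. Genes known to respond to low oxygen were called higher in 11 of 28 cases and lower in 1 (3 with equal totals). *Hilpda*, whose product blocks lipolysis on lipid droplets, had 263, 251 and 249 against 7687, 7365 and 7545 normalized counts, a gap of 29.6-fold between the means (log2 fold change 4.88, SE 0.13, limma adjusted p = 4.3e-18). *Ddit4*, an inhibitor of mTORC1, rose by 3.34 and *Ndrg1* by 2.48.

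None of 75 nuclear genes of oxidative phosphorylation was called by limma in either direction, with a median of -0.11, although 32 were lower and 5 higher by the adjusted p alone. *Atp5a1*, the gene of a subunit of ATP synthase, was at 14115, 14228 and 14634 against 14159, 13682 and 13521, with overlapping groups. Of 26 genes of the citric acid cycle 1 was called higher and 1 lower, and by the adjusted p alone 5 were higher and 12 lower. *Fh1*, the fumarase gene, fell by 1.13, from 4543, 4730.0 and 4711 to 2186, 2097 and 2108, and *Pcx*, which encodes pyruvate carboxylase, rose by 1.16. The genes encoded by the mitochondrial genome were not analysed here.

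Enzymes of arginine and itaconate metabolism included large rises. *Nos2*, the inducible nitric oxide synthase gene, was at 24.4, 14.5 and 19.7 in nonconfined and 14692, 13855 and 14383 in confined libraries. *Acod1*, whose product makes the antibacterial metabolite itaconate, was at 3264, 3088 and 3180.0 against 65492, 62048 and 62621. Both were higher in every confined library (log2 fold change 9.48, SE 0.22, limma adjusted p = 5.5e-19 and 4.32, 0.06 and 4.8e-23). *Slc7a2*, the gene of an arginine importer, rose by 4.58. *Kmo* and *Kynu*, enzymes of tryptophan breakdown, and *Srm*, which makes spermidine, fell by 2.10, 1.02 and 1.42. Other tryptophan and polyamine genes of the list were called higher, *Ido1* by 2.04, *Ido2* by 2.345 and *Odc1* by 2.59. In this group 11 of 22 genes were called higher and 3 lower. Of 17 amino acid transporters 6 were called higher, among them *Slc7a11* and *Slc3a2*, the subunits of the cystine importer, and none lower (4 by the adjusted p alone). *Slc7a11* went from 4396, 4743 and 4657 to 57479, 61721 and 60100.4 normalized counts (log2 fold change 3.70, SE 0.13, limma adjusted p = 6.6e-16).

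Of 16 genes of fatty acid synthesis 6 were called lower and 1 higher, with a median of -0.62. *Fasn*, the fatty acid synthase gene, was at 9569, 9186 and 8861 in nonconfined and 2475, 2522 and 2528 in confined libraries. The confined libraries were at 0.272 of the nonconfined mean and differed little among themselves (log2 fold change -1.87, SE 0.05, limma adjusted p = 1.8e-18). *Elovl6*, a gene of chain elongation, fell by 1.83, and the desaturase gene *Scd1* by 1.63. The exception was *Me1*, a malic enzyme gene that also belongs to the NRF2 targets, which rose by 2.29. Cholesterol synthesis and uptake moved less, with 1 of 24 genes called higher and 2 lower (0 higher and 3 lower with equal totals), among the latter *Dhcr7* (-1.42), which encodes a late step. Of 25 genes of lipid handling and its regulators 8 were called higher and 0 lower (4 higher and 2 lower with equal totals), and the median of 0.15 became -0.08 with equal totals. *Abca1*, a cholesterol exporter gene, went from 677, 699 and 727 to 4513, 5032 and 4880.1, and the triglyceride synthases *Dgat1* and *Dgat2* rose by 1.89 and 2.03, while the exporter gene *Abcg1* was lower by the adjusted p alone.

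Targets of NRF2, the factor that responds to oxidants and electrophiles, were called higher in 13 of 25 cases and lower in none (1 by the adjusted p alone), with a median of 1.09. *Hmox1*, which encodes the heme-degrading oxygenase, was at 3358, 3129 and 3167 in nonconfined and 67403, 62709 and 64329 in confined libraries. *Srxn1*, the sulfiredoxin gene, had 2758, 2752 and 2665 against 23043, 21889 and 22154 normalized counts. The separation was complete for each (log2 fold change 4.33, SE 0.12, limma adjusted p = 1.4e-17 and 3.04, 0.09 and 1.7e-17). *Gclm*, the regulatory subunit of glutathione synthesis, rose by 2.85. The interaction was called for 5 of the 13 genes called, where the share over all genes called was 47.0%. In cPLA_2_ KO DCs *Hmox1*, *Srxn1* and *Gclm* had log2 fold changes of 4.66, 2.91 and 3.21, and the adjusted p of the difference was 0.19, 0.52 and 0.18.

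Iron and zinc handling was called higher in 12 of 19 genes and lower in 1, with a median of 1.55. *Fth1*, the ferritin heavy chain gene, which stores iron, showed the largest rise in counts of any gene called, from 266291, 260354 and 267455 to 912475, 880577 and 900559. The iron exporter gene *Slc40a1* rose by 2.62 and the metallothionein gene *Mt2* by 3.99. *Tfrc*, the transferrin receptor gene through which cells import iron, was lower, at 6523, 6837 and 7216 against 2597, 2659 and 2471. The log2 fold change was 1.76 for *Fth1* (SE 0.07, limma adjusted p = 4.8e-15) and -1.41 for *Tfrc* (SE 0.06, limma adjusted p = 1.3e-14). Other genes of iron uptake, *Slc39a14* and *Slc11a2*, were called higher. *Steap4*, a metalloreductase gene, had no read in nonconfined libraries and 333, 416 and 364 normalized counts in confined ones, at least 433-fold more.

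The integrated stress response, which follows a lack of amino acids and other stresses, was called higher in 10 of 23 genes and lower in none (1 by the adjusted p alone). *Trib3*, a pseudokinase gene induced by ATF4, was at 127, 123 and 107 against 1145, 1044 and 1039, and *Nupr1* and *Chac1* rose by 3.10 and 2.88. The unfolded protein response of the endoplasmic reticulum did not follow, with 0 of 22 genes called higher by limma and 1 lower (*Sdf2l1*, -1.15), and with 5 higher and 13 lower by the adjusted p alone. Heat shock chaperones were called higher in 3 of 21 cases and lower in 1 (3 with equal totals), together near the 19.0% of all genes tested. By the adjusted p alone 6 were higher and 11 lower, and the median was -0.25. *Hspa1a*, an inducible HSP70 gene, rose by 2.64, while *Fkbp4*, a cochaperone of HSP90, fell by 1.37. Among p53 and DNA damage genes 5 of 29 were called higher and 5 lower. *Gadd45a* and *Fas* rose by 3.39 and 1.97, and *Atm* and *Chek2*, kinases of the damage response, fell by 1.44 and 1.21. Of 25 BCL-2 family and caspase genes 6 were called higher and 0 lower (3 higher and 1 lower with equal totals). They include the survival genes *Cflar* (2.29), *Birc3* (1.37) and *Bcl2a1b* (1.25), *Apaf1*, the apoptosome gene (1.12), and *Bcl2l11*, which encodes the death-promoting BIM.

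Of 31 proteasome subunit genes 22 were higher by the adjusted p alone and 1 was called, *Psmb6* (1.12), a call that ends with equal totals. Their median of 0.23 became 0.00 with equal totals. Of 29 autophagy genes 4 were called higher, near the 11.4% of all genes tested, led by the cargo receptor gene *Sqstm1*, at 9584, 9143 and 9296 against 56628, 53594 and 54791 normalized counts. *Optn* and *Tax1bp1*, which encode further cargo receptors, rose by 1.88 and 1.32. Lysosomal genes had 3 members called higher and 1 lower (2 with equal totals) of 38, and their median of 0.07 became -0.16 with equal totals. No gene of 79 cytosolic ribosomal proteins was called by limma, with 2 higher and 19 lower by the adjusted p alone and a median of -0.07 (-0.29 with equal totals). *Rplp0* was at 56399.7, 54008 and 54447 against 56337, 52675 and 53461, with groups that overlapped. Of 42 factors that assemble ribosomes 7 were called lower (14 with equal totals) and 1 higher, *Rcl1* (1.74). By the adjusted p alone 35 were lower and 3 higher, and the median was -0.66. *Dkc1*, which encodes the pseudouridine synthase dyskerin, was at 1625, 1785 and 1738 against 489.9, 491 and 499 (log2 fold change -1.80, SE 0.13, limma adjusted p = 1e-10), and the RNA polymerase I subunit genes *Polr1a* and *Polr1b* fell by 1.10 and 1.28.

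Among the functional lists, the lowest median was that of DNA replication. Of 37 genes 23 were called lower and none higher by limma, the median was -1.06, and each member was below 0. *Mcm2*, a subunit gene of the replicative helicase, had 1133, 1194 and 1089.8 against 327, 390.2 and 396 normalized counts. *Cdc6*, which loads the helicase onto origins, had 1030.2, 1009 and 966 against 248, 202 and 249. *Ccnd1*, the gene of cyclin D1, which carries cells into the cycle, had 3527, 3327 and 3210.4 against 689.9, 617 and 712. For all 3 genes the confined libraries were lowest, with log2 fold changes of -1.62, -2.11 and -2.32 (SEs 0.14, 0.13 and 0.08, limma adjusted p = 2.2e-09, 9.8e-12 and 1.7e-16). *Ung*, a uracil-DNA glycosylase gene active beside replication, fell by 3.19. Of 30 mitotic genes 3 were called lower (16 with equal totals), with a median of -0.78. By the adjusted p alone 28 were lower and 1 higher. *Kif23*, a kinesin gene of cell division, was at 1762, 1814 and 1856 against 782, 787 and 740.3, and *Aurkb* and *Cdc20* fell by 1.14 and 1.03. The interaction with genotype was called for 12 of the 23 replication genes called, where the share over all genes called was 47.0%.

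The label of the cells as DCs was set against marker genes. All 14 DC markers listed were expressed. Their summed level was 539171, 511185 and 517136 normalized counts in nonconfined and 532245, 497760 and 512043 in confined libraries, so that the groups overlapped, whereas as shares of the library totals, 1.57, 1.5 and 1.52% against 1.31, 1.27 and 1.29%, the confined ones were lower, with *Cd74*, the invariant chain gene, as the most abundant by counts. Of these markers 3 were called higher, *Ccr7*, *Cd80* and *Cd86*, and 2 lower. *Zbtb46*, a transcription factor gene of classical DCs, was at 709, 719 and 786 against 542, 592 and 597. The lower ones, *Flt3* and *Cd209a*, were at 128, 113 and 116 and at 153, 154 and 155 in nonconfined libraries and fell by 1.53 and 2.62. GM-CSF cultures also hold granulocytes and macrophages, and the semiadherent cells were the ones collected. Macrophage markers summed to 72581, 69369 and 70460 against 71498, 68911 and 70472, which overlap, and were lower in confined libraries as shares of the totals (0.212, 0.204 and 0.207% against 0.176, 0.176 and 0.177%), led by *Csf1r*, and 1 of 13 was called higher and 1 lower. Of 32 lineage regulators 5 were called higher and 4 lower, and the median of 0.09 became -0.14 with equal totals. *Cebpb*, a factor of emergency myelopoiesis, rose by 2.16, from 8901, 7667 and 8085 to 38717, 34988 and 36399.7, and *Nfil3* by 2.21.

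Markers of other marrow cells were present, and most of their sums differed between the groups. The paper's methods state that granulocytes, which do not adhere, are removed during differentiation. In bulk libraries fewer cells of a type and less RNA per cell cannot be told apart, and the part of these cells in the results above was not tested. Neutrophil markers summed to 276912, 281730 and 280302 in nonconfined and 207268, 197534 and 195899 in confined libraries, with *S100a9* the most abundant and 8 of 16 called lower. *Elane*, the neutrophil elastase gene of immature granulocytes, was at 1026, 874 and 1002 against 141, 116 and 141. *Mpo*, the myeloperoxidase gene, was at 2451, 2274 and 2334 against 328, 321 and 341. These genes of early granulocytes were low in every confined library (log2 fold change -2.86 and -2.83), and *Ly6g* and *Retnlg*, of mature neutrophils, fell by 1.31 and 1.23. *Cxcr2* and *Csf3r*, which mature neutrophils also carry, had log2 fold changes of -0.05 and 0.01, the latter -0.21 with equal totals, and were not called. *Lcn2*, also a marker in this list, was higher by the adjusted p alone, with a log2 fold change of 0.93. *Ltf*, the lactoferrin gene, showed the largest fall in counts of any gene called, from 44268, 44363 and 43998 to 22481, 20687 and 21452.

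Eosinophil markers summed to 33943, 33830 and 33776 against 9942, 9441 and 9318, with 7 of 10 called lower, 1 higher (*Ccr3*) and *Prg2* the most abundant. *Epx*, the eosinophil peroxidase gene, was at 7310.5, 6821 and 6885 against 1219, 1222 and 1109.9. Mast cell and basophil markers summed to 10640, 10675 and 10785 against 17061, 16397 and 16955. That sum hides opposite changes, since *Hdc*, the histidine decarboxylase gene and the most abundant, rose from 730.0, 732 and 744 to 12596, 12068 and 12444 while 6 of 11 members tested were called lower, such as *Mcpt8* (-1.64), *Cpa3* (-1.37) and *Ms4a2* (-2.21). T cell markers summed to 2550, 2579 and 2504 against 905, 948 and 802, mostly *Cd3g*, and 4 of 6 members tested were called lower. By the adjusted p alone 1 member was higher, and *Lck* went from 72, 68 and 58 to 107, 139 and 90 reads. Plasmacytoid DC markers summed to 11222, 11281 and 10921 against 11895, 11561 and 11612, higher in confined libraries but lower as shares of the totals, mainly *Bst2*, with *Siglech* at 4.57, 3.41 and 15.7 against 1.93, 0 and 7.11. B cell markers summed to only 65, 35 and 55 against 17, 29 and 32 normalized counts, with *Vpreb3* at 0 in all 6 libraries. NK cell markers summed to 287, 300 and 344 against 559, 531 and 506, led by *Klrk1*. Erythroid markers summed to 3168, 3089 and 3209 against 3226, 3001 and 2987, almost all of it *Car2*, with *Alas2* at 0. Osteoclast markers summed to 8578, 8104 and 8139 against 9396, 9175 and 9322, higher in confined libraries but lower as shares of the totals, led by *Atp6v0d2*, with *Calcr* at 0. Megakaryocyte and platelet markers summed to 2102, 1906 and 1957 against 6529, 6132 and 6352, which followed *Ppbp*. Stromal and endothelial markers summed to 2140, 2031 and 2156 against 2139, 2141 and 2079, mainly *Pecam1*, with *Krt8* at 0. The sums of erythroid and of stromal and endothelial markers overlapped, and as shares of the totals they were lower in confined libraries.

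**Figure D3:**
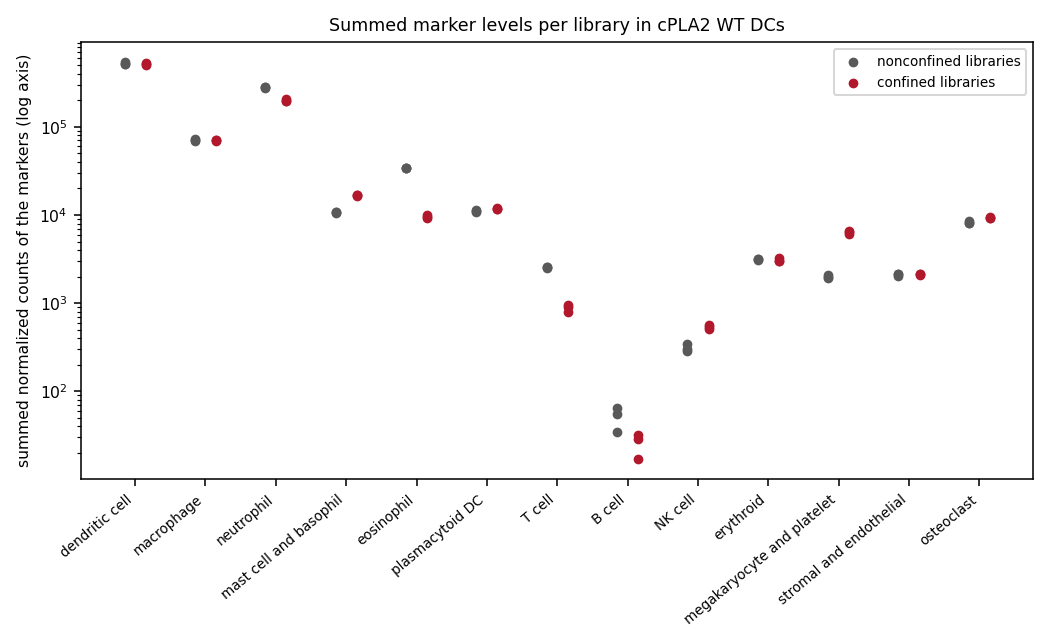
Summed normalized counts (log axis) of the markers of 13 cell types in each nonconfined (grey) and confined (red) cPLA_2_ WT library. Confined libraries lay below nonconfined ones for neutrophil, eosinophil, T cell and, at few counts, B cell markers. They lay above them for mast cell and basophil, NK cell, megakaryocyte and platelet, plasmacytoid DC and osteoclast markers. They overlapped them for DC, macrophage, erythroid, and stromal and endothelial markers. As shares of the library totals the overlapping sums were lower in confined libraries, as were those of plasmacytoid DC and osteoclast markers.

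Promoters of genes in several of these lists were searched for short motifs on both strands, from 250 bases before to 50 bases after the annotated start on GRCm39. The core of the interferon-stimulated response element, GAAANNGAA, was present in 24 of 53 windows of interferon-stimulated genes (45.3%), in 8.19% of the windows of the 12614 genes tested that have one and in 8.78% of all 21757 promoters. The κB core, GGGANTTTC, was present in 5 of 10 windows of CXC chemokine genes against 1.26% of those of genes tested and 1.23% of all promoters. Among NF-κB pathway genes it was in 1 of 41 windows (2.44%), and among all genes called higher in 33 of 1375 (2.40%). The E2F motif, TTTCNCGC, was in 7 of 37 windows of DNA replication genes (18.9%), in 3.41% of genes tested and in 2.54% of all promoters. For the cAMP response element, TGACGTCA, the shares were 14.8% among immediate early genes (4 of 27), 3.09% among genes tested and 2.45% among all promoters, and for the lysosomal element TCACGTGA they were 11.1% among lysosomal genes (4 of 36), 1.63% and 1.11%. The E2F motif was in 1 of 30 windows of mitotic genes (3.33%), and the core of the interferon-stimulated response element in 7 of 36 windows of lysosomal genes (19.4%). The first 3 of these motifs overlap in their letters, as each holds GAAA or, on the other strand, TTTC. A match describes the letters in the window and is not a bound site.

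The promoters shown were picked by hand among those that hold a motif, and do not stand for the genes with the largest rises. *Cxcl11* and *Oasl1*, which rose more than *Cxcl1* and *Ifit1*, are not shown. *Cxcl1* at chr5:91038844-91039143 (plus strand) and *Cxcl2* at chr5:91051480-91051779 (plus strand), which neighbour each other, hold the κB core, in capitals as all matches below, 61 and 69 bases before the start. *Rsad2* at chr12:26506402-26506701 (minus strand) holds the core of the interferon-stimulated response element 119 bases before the start, and *Ifit1* at chr19:34618021-34618320 (plus strand) holds it 91, 85 and 66 bases before the start, where the matches at 91 and 85 overlap. The matches in *Rsad2* and *Ifit1* read on the opposite strand, and all windows are written in the direction of transcription.
Cxcl1: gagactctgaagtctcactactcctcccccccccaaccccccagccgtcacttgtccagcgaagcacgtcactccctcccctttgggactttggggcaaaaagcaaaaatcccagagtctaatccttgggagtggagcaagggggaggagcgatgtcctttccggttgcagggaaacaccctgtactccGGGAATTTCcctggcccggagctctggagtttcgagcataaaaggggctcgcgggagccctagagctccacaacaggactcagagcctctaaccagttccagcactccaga
Cxcl2: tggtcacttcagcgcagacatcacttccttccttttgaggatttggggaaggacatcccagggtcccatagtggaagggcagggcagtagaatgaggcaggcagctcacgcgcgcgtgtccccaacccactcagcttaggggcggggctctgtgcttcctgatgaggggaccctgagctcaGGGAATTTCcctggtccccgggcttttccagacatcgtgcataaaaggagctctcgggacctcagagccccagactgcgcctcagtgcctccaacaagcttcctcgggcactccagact
Rsad2: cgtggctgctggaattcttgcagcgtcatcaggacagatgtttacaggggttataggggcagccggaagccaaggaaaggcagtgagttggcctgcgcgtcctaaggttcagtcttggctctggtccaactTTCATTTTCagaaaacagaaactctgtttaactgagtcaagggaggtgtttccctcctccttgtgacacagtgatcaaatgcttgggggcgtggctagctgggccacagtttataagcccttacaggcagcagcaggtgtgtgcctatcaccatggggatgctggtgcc
Ifit1: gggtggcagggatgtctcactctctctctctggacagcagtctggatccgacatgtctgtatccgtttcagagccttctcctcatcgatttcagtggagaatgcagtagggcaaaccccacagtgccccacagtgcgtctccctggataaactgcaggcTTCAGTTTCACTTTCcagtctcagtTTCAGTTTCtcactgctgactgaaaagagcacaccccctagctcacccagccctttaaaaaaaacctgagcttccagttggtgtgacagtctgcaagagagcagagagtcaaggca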

How the data were processed

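The authors aligned reads to mm39 with STAR 2.7.5a, counted them per gene with featureCounts 1.5.0 and divided counts by DESeq2 size factors in R 3.5.3. The deposited signal values are these normalized counts, and all values above 0 return whole reads within 0.001. Libraries were grouped by genotype and treatment as labelled.

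The log2 of each normalized count plus 1 was fitted with limma 3.58.1 in R 4.3.3, over all 18 libraries with 1 mean per condition, trend and moderated variances. The code was first run on simulated counts. The interaction is the cPLA_2_ WT response minus the cPLA_2_ KO response. A list's median is over its members tested. Of 1695 entries in 65 lists, 1680 matched the table, 1658 by gene symbol, 17 through an entry shared by several symbols and 5 by another symbol, and 37020 genes in it have no symbol. The members and lists were chosen with earlier results of these data known. Genes are named by size of change, by size of change within a list, as markers, or because the study discusses them. *Nfkb1*, *Nfkb2*, *Rel*, *Nfkbia*, *Chuk*, *Ifnb1*, *Tgfb2*, *Tgfb3*, *Hbegf*, *Ptger3*, *Ptger4*, *Alox5ap*, *Ltc4s*, *Mmp13*, *Mmp14*, *Mmp19*, *Mmp25*, *Abcg1*, *Slc39a14*, *Slc11a2*, *Bcl2l11*, *Ido1*, *Ido2* and *Odc1* were named after their values were seen. Promoter windows use canonical GENCODE starts in place of RefSeq promoters, which are on another build. Some genes are not reported here.

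The biological coefficient of variation over the genes was 0.0480 in nonconfined and 0.0559 in confined cPLA_2_ WT libraries. Alternatives were edgeR 4.0.16, DESeq2 1.42.0, other scalings, filters, pseudocounts and thresholds, a replicate block, the 6 libraries alone and leaving out each library. The libraries with LPS entered only the filter on counts and the estimate of spread. Figures used matplotlib 3.10.9.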

Additional observations from a re-analysis of the deposited data

Results flagged for a closer look

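Of the 3400 genes called in cPLA_2_ WT DCs, 1599 were flagged because their response to confinement differed from that in cPLA_2_ KO DCs (limma interaction, adjusted p under 0.05). Interferon-inducible genes among them are *Ifit1*, with a cPLA_2_ WT response larger by 4.89 on the log2 scale, *Tgtp1* (4.53) and *Gbp5* (4.32). Markers of early granulocytes differed the other way, *Elane* by -2.02, *Ms4a3* by -1.93 and *Mpo* by -1.49. The cause was not tested.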

How the results depend on the processing

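The counts of calls kept their side of the threshold under each alternative except where a filter, scaling or threshold moved them. With a filter of 100 normalized counts, 1248 genes were called higher and 751 lower, as fewer genes were tested. Equal totals shift nearly all log2 fold changes of cPLA_2_ WT DCs downwards together, and gave 2141 lower calls. Normalized totals of cPLA_2_ KO libraries averaged 34932739 without and 35818965 with confinement, a smaller gap. The interaction therefore shifted too, and was called for 6703 genes. Why the totals differ was not tested. By the adjusted p alone 5038 genes were higher and 5075 lower, and at a fold change of 1.5 with an unadjusted p of 0.05 the counts were 3269 and 2898, as these thresholds are looser. Leaving out single libraries gave 1864 to 2065 higher and 1267 to 1343 lower calls, edgeR 2063 and 1342, DESeq2 2122 and 1378, and TMM, computed on the genes tested, 2113 and 1293. Of 4059 values of 239 named genes under alternatives, 5 with an adjusted p under 0.05 on either side changed sign. All 5 did so with equal totals, under the shift given above: *Actr2* (-0.09), *Alox5ap* (-0.06), *Chuk* (-0.03), *Bst2* (-0.20) and *Pecam1* (-0.20). The calls of *Ltb*, *Kynu* and *Ciita* end with TMM, and those of *Ltb*, *Kynu*, *Cdc20*, *Arpin*, *Tgfb2* and *Bcl2l11* without 1 library or another. Without confined replicate 3, *Hbegf* is called higher and *Siglech* lower. With equal totals 15 list medians changed sign, and none did with TMM or a pseudocount of 5. Genes with few reads, such as *Siglech*, are measured poorly at this depth.

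With the replicate number as a replicate block, 2032 genes were called higher, 1360 lower and 4426 by the interaction. Libraries of the same number had residual correlations of 0.183, 0.106 and -0.0638, and those of different numbers -0.221 to 0.154. So few values do not decide whether the numbers pair the libraries.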
